A study of Mus musculus with 12 samples.

Results

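Genes that are commonly read as transcriptional targets of YAP were followed in irradiated MODE-K cells: Ccn1, Ccn2, Axl, Crim1, Ankrd1, Lats2, Wwc1, Ajuba, Amotl1 and Amotl2. They were picked by symbol from the deposited gene table, in which Ccn1 is written Cyr61 and Ccn2 is written Ctgf. The 10 members were found once each among 22036 known genes, in a table of 33625 genes that also holds unannotated loci, and all 10 had enough reads to be tested. MODE-K is an immortalised line from mouse small intestine, and all libraries carry the genotype label Wild Type. The 12 libraries fell into 4 groups of 3: control (0 Gy, collected at 0 h), 4Gy_48h (4 Gy, 48 h later), 12Gy_24h (12 Gy, 24 h later) and 12Gy_48h (12 Gy, 48 h later), with gamma rays from a cobalt source. Because no unirradiated cells were collected at 24 h or 48 h, dose and time in culture cannot be told apart in any comparison with control. The labels speak of parallel groups without saying that they were separate cultures. The p-values set differences between groups against the scatter of these libraries, and that scatter may be technical.

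YAP and its relative TAZ are transcriptional coactivators that bind DNA through TEAD factors. The Hippo kinases LATS1 and LATS2 phosphorylate them and keep them in the cytoplasm, and low cell density, stiff matrix and actin tension release them into the nucleus. In the intestinal epithelium YAP is known for its part in regeneration after injury, including irradiation. Several of its targets, among them Lats2, Wwc1, Ajuba, Amotl1 and Amotl2, code for proteins that act on the Hippo pathway itself and so form feedback loops.

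Library totals ran from 3616416 to 4831641 assigned reads. Unannotated loci took 21.0% ± 1.03 of control reads, a share that was 11.9% ± 0.0571 at 12Gy_24h, 14.7% ± 0.606 at 12Gy_48h and 15.8% ± 0.947 at 4Gy_48h (SD, n = 3 each). Scaling over all genes therefore placed the median known gene above 0 against control, at log2 0.23 at 12Gy_24h, 0.20 at 12Gy_48h and 0.14 at 4Gy_48h. Each change below is given on that scale and, where the call differs, the outcome of a fit to known genes alone is added, scaled on their own, which put these medians at -0.00, 0.01 and -0.01. The epithelial label was checked against 10 markers. Epcam, Cdh1, Cldn4 and Vil1 had 0 to 1 reads per library, Krt8 and Krt19 had 0 to 2, and Cldn3 and Cldn7 had 0. Cdx2 had 1 to 9 and Krt18 had 5 to 62, so most of the listed epithelial markers were at or near 0. Of the fibroblast and smooth muscle list, Col1a2 had 648 to 1228, Col1a1 25 to 64 and Pdgfrb 2 to 14. Pdgfra had 1 to 9, Dcn 0 to 4, Col3a1 0 to 2, Thy1 and Acta2 0 to 1, and Lum and Postn 0. The summed level of the 10 epithelial markers was 1.85 to 6.21 CPM (reads scaled to a common library total) in control, 12.9 to 17.5 at 12Gy_24h, 9.37 to 9.68 at 12Gy_48h and 7.90 to 8.0 at 4Gy_48h. Most of it was Krt18, which alone of that list could be tested. Krt18 rose by 2.14 on the log2 scale at 12Gy_24h against control (edgeR adjusted p = 2.8e-05, and 0.000432 with known genes alone). From 24 h to 48 h after 12 Gy it fell by 1.11 (0.00705). The sum over 10 fibroblast and smooth muscle markers was 183 to 201, 273 to 336, 252 to 314 and 256 to 285 CPM in the order of groups of the epithelial sum, nearly all of it Col1a2. At 12Gy_24h against control Col1a2 rose by 0.81 on the log2 scale (edgeR adjusted p = 2.96e-05), Pdgfrb fell by 1.63 (0.014) and Col1a1 had 0.06 (0.881), the 3 markers of that list with enough reads to be tested. The sum over 7 immune markers was 23.4 to 29.6 CPM in control, 23.8 to 37.3 at 12Gy_24h, 44.1 to 52.1 at 12Gy_48h and 17.4 to 23.2 at 4Gy_48h. Most of it was the lysosomal gene Cd68, which rose at 12Gy_48h by 0.94 against control (0.00225) and by 1.48 against 4Gy_48h (0.0028), while Ptprc and Cd3e had 0 reads in every library. The sum over 7 endothelial markers was 4.50 to 7.94 CPM in control, 9.86 to 13.7 at 12Gy_24h, 11.3 to 19.1 at 12Gy_48h and 4.97 to 7.90 at 4Gy_48h. Tie1 alone of that list could be tested and rose by 1.01 at 12Gy_24h (0.00557, and 0.0545 with known genes alone) and by 1.18 at 12Gy_48h (0.00299), while Pecam1, Cdh5 and Kdr had 0 to 1 reads per library. The epithelial and fibroblast sums were lowest in control, as were several members, and the immune sum was highest at 12Gy_48h, as were Ccn1 and Ccn2. These sums are scaled to the library total, of which unannotated loci took the largest share in control. The part of these markers in the members' results was not tested. In bulk RNA, a change in the number of cells of one kind and a change in RNA per cell cannot be told apart.

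Promoter sequence is shown for the 5 members called higher in at least one comparison with control that have a RefSeq promoter window, because the common route of YAP to its targets is the TEAD core GGAATG. The window runs from 250 bases before to 50 bases after the RefSeq start site (GRCm38.p6). The core was searched as GGAATG on either strand, which reads CATTCC on the other. Capitals mark each match, and each sequence is written 5′ to 3′ on the strand of its gene.
Ccn1 chr3:145649936-145650235: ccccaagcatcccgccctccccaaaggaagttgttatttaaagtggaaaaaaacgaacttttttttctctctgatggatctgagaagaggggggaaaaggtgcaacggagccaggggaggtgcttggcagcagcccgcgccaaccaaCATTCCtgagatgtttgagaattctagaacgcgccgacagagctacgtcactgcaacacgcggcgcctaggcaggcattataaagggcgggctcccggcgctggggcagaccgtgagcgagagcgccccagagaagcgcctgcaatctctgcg
Ankrd1 chr19:36119795-36120094: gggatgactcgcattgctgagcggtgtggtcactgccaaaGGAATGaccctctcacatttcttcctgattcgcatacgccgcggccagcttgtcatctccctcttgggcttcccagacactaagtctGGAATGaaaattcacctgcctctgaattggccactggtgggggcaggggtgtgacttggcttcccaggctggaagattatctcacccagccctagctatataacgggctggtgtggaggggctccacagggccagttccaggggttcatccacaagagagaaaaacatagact
Crim1 chr17:78199998-78200297: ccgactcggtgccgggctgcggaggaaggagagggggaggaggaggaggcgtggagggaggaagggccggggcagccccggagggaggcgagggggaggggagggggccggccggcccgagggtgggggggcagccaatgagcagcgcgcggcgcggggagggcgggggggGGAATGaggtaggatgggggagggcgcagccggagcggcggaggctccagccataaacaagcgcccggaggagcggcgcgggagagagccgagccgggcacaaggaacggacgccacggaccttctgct
Ajuba chr14:54577612-54577911: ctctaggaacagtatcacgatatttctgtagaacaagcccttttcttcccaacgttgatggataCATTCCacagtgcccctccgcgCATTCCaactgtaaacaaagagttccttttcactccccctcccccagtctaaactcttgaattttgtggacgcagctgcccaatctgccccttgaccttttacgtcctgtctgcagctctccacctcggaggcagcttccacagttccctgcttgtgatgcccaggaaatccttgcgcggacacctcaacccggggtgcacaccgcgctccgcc
Wwc1 chr11:35980478-35980777: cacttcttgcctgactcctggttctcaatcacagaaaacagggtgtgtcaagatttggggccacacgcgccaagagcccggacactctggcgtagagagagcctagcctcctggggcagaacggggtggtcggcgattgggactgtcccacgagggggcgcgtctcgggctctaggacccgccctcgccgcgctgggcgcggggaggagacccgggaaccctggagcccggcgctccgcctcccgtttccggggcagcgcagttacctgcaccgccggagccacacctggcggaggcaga
All 5 but Crim1 lie on the minus strand. The Ankrd1 window held 2 matches, starting 210 and 123 bases before the start site. Ajuba also held 2, at 186 and 164 bases before it, 1 close behind the other. Ccn1 held 1 at 103 bases and Crim1 held 1 at 79 bases before the start site. Wwc1 held none. Its estimated change against control was the largest of the members (log2 1.80 at 12Gy_24h), close to that of Ccn2 (1.74 at 12Gy_48h).

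Over all members, 9 of 10 had a window in the table, the exception being Ccn2, and 7 of those 9 held at least 1 core. Axl had a match 233 bases before its start site and Amotl2 had one 65 bases before. Lats2 has 2 windows, of which one held a match 4 bases after the start site and the other none. Amotl1 held none. Among all 32851 RefSeq windows of this length, 14.7% held at least 1 core and 1.36% held 2 or more. The AP-1 motif TGANTCA, which reads the same on both strands and can share its first 2 letters with the end of the core, was in 7.81% of all windows and in 0 of the 9 members. The CArG box, the motif of serum response factor, was in 1.63% of all windows and likewise in 0 members. A match is a run of letters in this window and not a measured binding site.

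**Figure D1:**
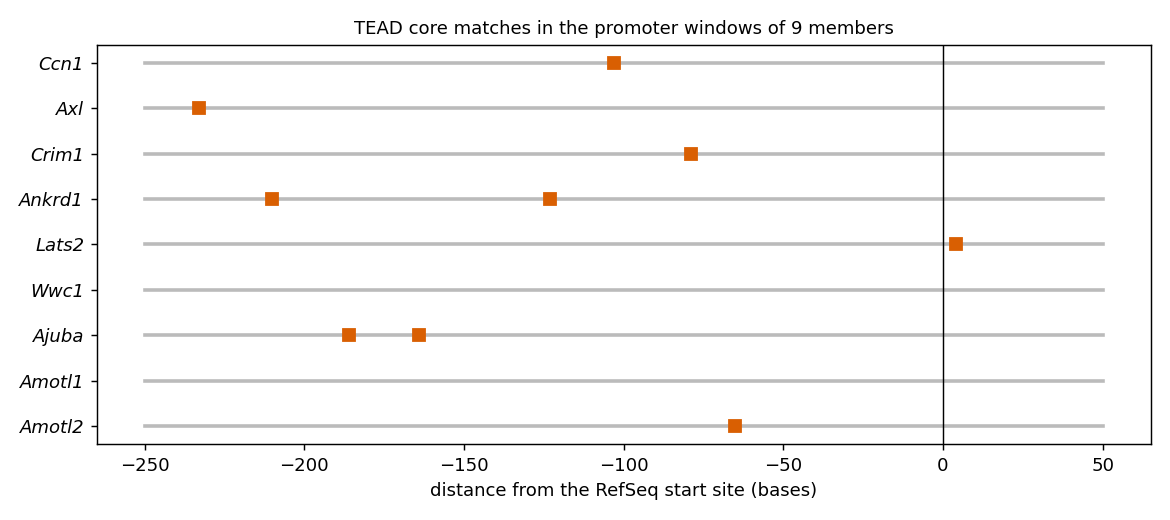
Positions of TEAD core matches (squares) in the promoter windows of 9 members, drawn as grey lines from 250 bases before to 50 bases after the RefSeq start site (x axis, bases). The Lats2 line stands for the window that holds a match. Wwc1 and Amotl1 have none, and Ankrd1 and Ajuba have 2 each.

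The members' own positions are from GENCODE vM21 on GRCm38, matched by Ensembl identifier, and the build used by the authors is not given in the sources used here. All 10 are protein-coding genes. Ccn1 spans chr3:145646976-145649981, Ccn2 chr10:24595442-24598683, Axl chr7:25757273-25788705, Crim1 chr17:78200248-78376592 and Ankrd1 chr19:36111961-36120099. Lats2 spans chr14:57689662-57758388, Wwc1 chr11:35838400-35980527, Ajuba chr14:54567472-54577558, Amotl1 chr9:14541966-14645056 and Amotl2 chr9:102716672-102733418. Exons of 3 members overlap those of another gene. Lats2 shares 2955 exonic bases with Gm49361 on the same strand, which had 0 reads in every library. Crim1 shares 123 exonic bases with Fez2 on the opposite strand, which had 196 to 432 reads. Ccn2 shares 665 exonic bases with Gm15270 on the opposite strand, which has no row in the table. Whether counting used strand is not given in the sources used here, so reads from these stretches cannot be told apart. An unannotated locus that the table annotates as similar to Ankrd1 protein had 0 to 7 reads and is not counted here.

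With all genes scaled together, several members were called higher in irradiated cells than in control, and fewer were with known genes alone. The members called were not the same in the 3 comparisons with control. Calls that differ between comparisons do not test time or dose, for which direct comparisons are given below. A member was called where edgeR's quasi-likelihood test over all 15086 genes tested gave a Benjamini-Hochberg adjusted p under 0.05. At 12Gy_24h against control, 5 of 10 members rose: Wwc1, Ankrd1, Crim1, Ccn2 and Ajuba. In that comparison 18.5% of all genes tested and 26.5% of the 9809 known genes tested were called higher. Fitted alone, the known genes gave 3 of 10 members that rose (Wwc1, Ankrd1 and Crim1), against 9.15% of 9816 known genes. At 12Gy_48h against control, 3 of 10 members rose (Ccn2, Ccn1 and Crim1), where 12.9% of all genes and 18.2% of known genes were called higher. Fitted alone, they gave 1 of 10, Ccn2, against 6.76%, so the count was close to that share. At 4Gy_48h against control, 3 of 10 rose (Crim1, Ajuba and Ankrd1), where 4.53% of all genes and 6.21% of known genes were called higher. Known genes alone gave 0 of 10 there, against 0.754%. No member was called lower in these 3 comparisons by edgeR, where 0 of 10 also had an unadjusted p under 0.05 on the lower side, or by DESeq2. Lower calls made up 29.4%, 20.2% and 13% of all genes tested at 12Gy_24h, 12Gy_48h and 4Gy_48h. Among known genes they were 3.99%, 3.74% and 0.877%, so few of any 10 known genes would be called lower. The counts of members that rose were 1 at 12Gy_48h without 12Gy_48h replicate 2 or without control replicate 3, and 1 at 4Gy_48h without 4Gy_48h replicate 2.

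The comparisons within irradiated cells carry no control. Between 24 h and 48 h after 12 Gy, 2 of 10 members fell, Ankrd1 and Wwc1, in both fits. Lower calls there made up 11.4% of all genes tested, 15.6% of known genes and 12.6% of known genes scaled alone. Amotl1 alone was called higher at 48 h, where higher calls made up 20.6% of all genes, 9.97% of known genes and 11.1% of known genes alone. Between 4 Gy and 12 Gy at 48 h, 1 of 10 members, Ccn1, was higher after 12 Gy, where 2.19% of all genes, 2.79% of known genes and 2.91% of known genes alone were. By edgeR 0 of 10 was lower after 12 Gy, with 2 at an unadjusted p under 0.05 and 0 by DESeq2. Lower calls there made up 2.49% of all genes tested, 1.55% of known genes and 3.22% of known genes alone. The median log2 fold change of the 10 members was 0.45 at 12Gy_24h, 0.37 at 12Gy_48h and 0.45 at 4Gy_48h against control, beside the known-gene medians of 0.23, 0.20 and 0.14. With known genes alone the members' medians were 0.22, 0.19 and 0.30. These 3 comparisons share the control libraries.

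**Figure D2:**
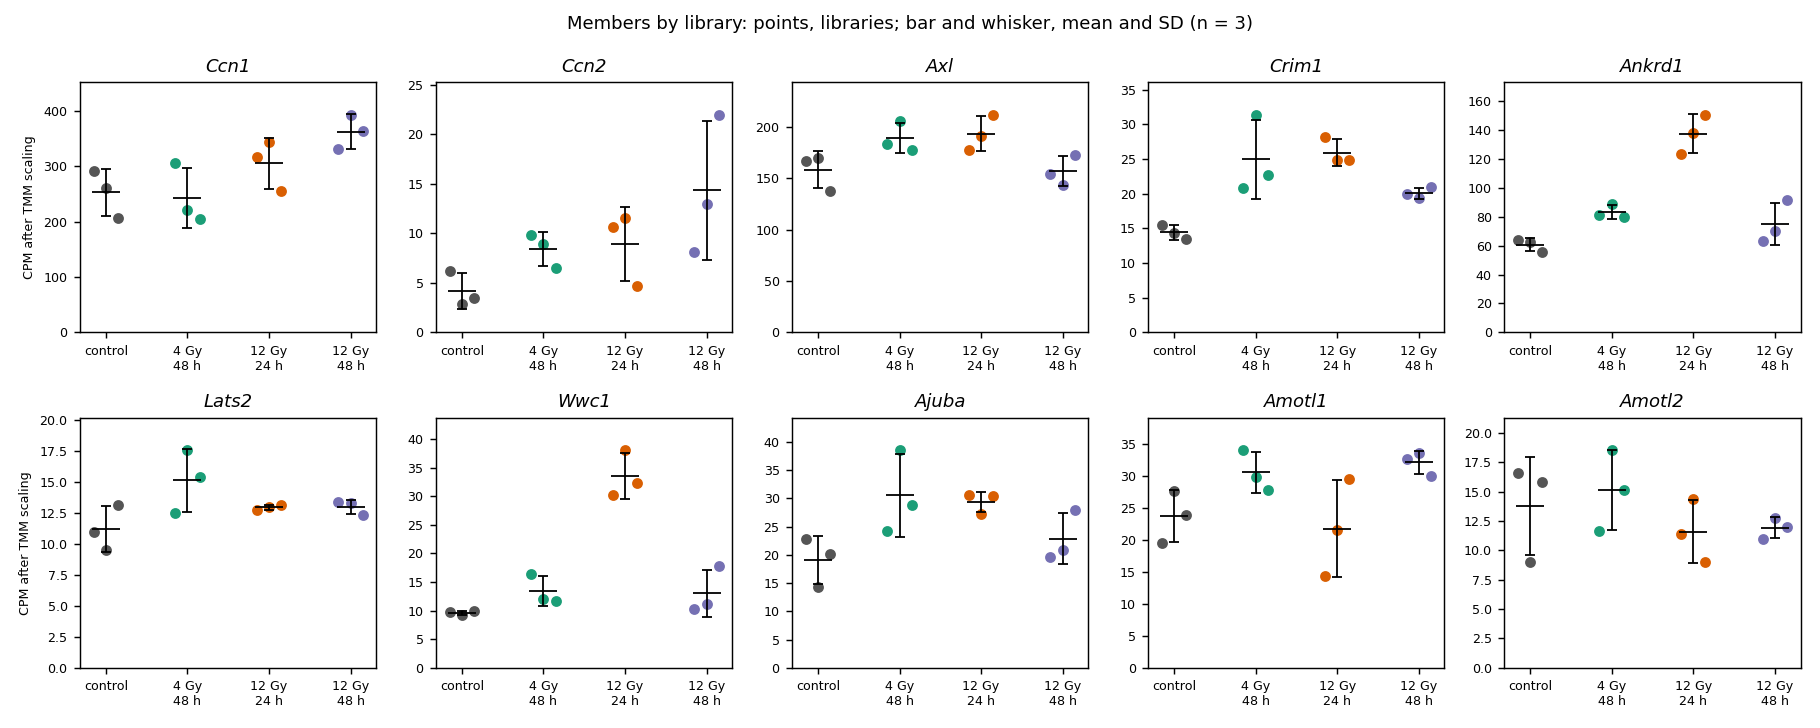
Level of each member in every library, in CPM after TMM scaling (y axis, from 0, a separate scale per gene), for the 4 groups of 3 libraries (x axis). Points are libraries, and the bar and whiskers are the mean and SD. Wwc1 sits between 30.3 and 38.0 CPM at 12Gy_24h and at or below 17.8 in all other libraries.

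Of the secreted members, both CCN genes were highest at 12Gy_48h. Ccn1 codes for a matricellular protein that binds integrins at the cell surface. Its level, in CPM after trimmed-mean (TMM) scaling as for all members below, was 292, 260 and 206 in control, 305, 221 and 204 at 4Gy_48h, 317, 344 and 255 at 12Gy_24h, with 331, 393 and 365 at 12Gy_48h. The 12Gy_48h libraries lay above every control and every 4Gy_48h library, and overlapped those at 12Gy_24h, while the other 3 groups overlapped one another. Ccn1 rose 1.43-fold at 12Gy_48h against control (95% interval 1.14 to 1.81, adjusted p = 0.0189). With known genes alone its log2 change was 0.33 with an adjusted p of 0.15. Leaving out 12Gy_48h replicate 2 gave an adjusted p of 0.0503 and leaving out control replicate 3 gave 0.0677. Against 4Gy_48h the 12Gy_48h level was 1.49 times as high (1.18 to 1.88, adjusted p = 0.0483, and 0.0443 with known genes alone). That call was lost without 12Gy_48h replicate 1, 2 or 3 (adjusted p = 0.0835, 0.189 and 0.101) and without 4Gy_48h replicate 2 or 3 (0.137 and 0.18). At 12Gy_24h against control the log2 change of Ccn1 was 0.27 ± 0.16 (SE, adjusted p = 0.175) and at 4Gy_48h -0.06 ± 0.16 (0.854). Without 12Gy_24h replicate 3 the 12Gy_24h change was 0.51 with an adjusted p of 0.018, and with no filter 0.43 with 0.00617.

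Ccn2, the second matricellular member and a widely used readout of YAP, had few reads. It was counted 29, 11 and 13 times in control, 38, 36 and 24 times at 4Gy_48h, 40, 42 and 16 times at 12Gy_24h, with 31, 51 and 84 times at 12Gy_48h. The sums of 53, 98, 98 and 166 reads have exact 95% Poisson intervals of 39.7 to 69.3, 79.6 to 119, 79.6 to 119 and 142 to 193, which cover counting error only. In CPM the libraries held 6.23, 2.82 and 3.48 in control, 9.87, 8.88 and 6.47 at 4Gy_48h, 10.6, 11.6 and 4.67 at 12Gy_24h, with 8.11, 13.0 and 22.0 at 12Gy_48h. All 12Gy_48h and 4Gy_48h libraries lay above all controls, and the third 12Gy_24h library lay inside the control range. Ccn2 rose 3.35-fold at 12Gy_48h (1.89 to 5.93, adjusted p = 0.0029), and the call held with known genes alone (log2 1.56, adjusted p = 0.0111) and without any 1 of the 6 libraries (largest adjusted p = 0.0225). The rise of 2.10-fold at 12Gy_24h (1.14 to 3.87, adjusted p = 0.0424) was less firm. Known genes alone gave an adjusted p of 0.175, the replicate block gave 0.0651, and leaving out 12Gy_24h replicate 1 or 2 or control replicate 2 or 3 gave 0.115, 0.103, 0.105 and 0.0807. At 4Gy_48h the log2 change was 0.98 ± 0.42 (SE) with an adjusted p of 0.117, and 0.016 with no filter. The other CCN family genes on the list, Ccn3, Ccn4, Ccn5 and Ccn6, were too low to be tested, with a summed level of at most 2.69 CPM in any library.

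Axl, a receptor tyrosine kinase whose ligand is GAS6, moved by small steps. Its CPM was 167, 170 and 137 in control, 184, 206 and 178 at 4Gy_48h, 178, 191 and 212 at 12Gy_24h, with 155, 144 and 172 at 12Gy_48h. The 4Gy_48h and 12Gy_24h libraries lay just above the controls, and the 12Gy_48h libraries overlapped them. The fit over all genes called it in no comparison, while several alternatives did. The change nearest to a call was 1.22-fold at 12Gy_24h against control (1.03 to 1.45, adjusted p = 0.0545), which was 0.05 on the log2 scale with known genes alone (adjusted p = 0.795). Leaving out any 12Gy_24h library (adjusted p = 0.0353, 0.0252 and 0.0401) or control replicate 1 or 2 (0.0355 and 0.0148) brought that change past the threshold, as did DESeq2 (0.0263), RLE scaling (0.0285), a group mean of 5 CPM or more (0.043) and no filter (0.00398). At 12Gy_48h against 12Gy_24h the log2 change was -0.30 ± 0.12 (SE, adjusted p = 0.0615). It was called lower under DESeq2 (adjusted p = 0.0189), RLE scaling (0.0236), the 5 CPM filter (0.0479), no filter (0.0248) and a fit to the 2 groups alone (0.0239), and without 12Gy_48h replicate 3 (0.0425). Of its family and ligands, 2 of 4 genes (Tyro3, Mertk, Gas6 and Pros1) could be tested and neither was called by edgeR in any comparison, with 0 at an unadjusted p under 0.05 and 0 by DESeq2.

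Crim1, a transmembrane protein with cysteine-rich repeats that binds BMP ligands, was the member called higher in all 3 comparisons with control. It stood at 15.5, 14.3 and 13.4 CPM in control, 20.8, 31.3 and 22.7 at 4Gy_48h, 28.1, 24.8 and 24.8 at 12Gy_24h, with 19.9, 19.4 and 20.9 at 12Gy_48h. Every irradiated library lay above every control. Crim1 rose 1.79-fold at 12Gy_24h (1.40 to 2.30, adjusted p = 0.000542), and with known genes alone by 0.61 on the log2 scale (adjusted p = 0.0152). At 4Gy_48h it rose 1.73-fold (1.35 to 2.21, adjusted p = 0.00394), where known genes alone gave 0.64 with an adjusted p of 0.0577. The rise of 1.39-fold at 12Gy_48h (1.08 to 1.78, adjusted p = 0.0429) was lost with known genes alone (0.261), under DESeq2 (0.127), RLE scaling (0.0564) and the replicate block (0.0564). It was also lost without 12Gy_48h replicate 1, 2 or 3 (0.0781, 0.0548 and 0.0988) and without control replicate 2 or 3 (0.0662 and 0.0956). Between irradiated groups its log2 differences were -0.37 ± 0.16 for 48 h against 24 h and -0.32 ± 0.16 for 12 Gy against 4 Gy (SE), neither called. The first was called under RLE scaling (adjusted p = 0.0447) and in a fit to the 2 groups alone (0.0419).

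Ankrd1 codes for an ankyrin repeat protein of nucleus and sarcomere, best known from stressed heart muscle. Its libraries held 64.3, 62.2 and 55.7 CPM in control, 81.5, 89.1 and 80.1 at 4Gy_48h, 123, 138 and 151 at 12Gy_24h, with 63.6, 70.0 and 91.7 at 12Gy_48h. The 12Gy_24h libraries lay above all others and the 4Gy_48h libraries lay above all controls, while the 12Gy_48h libraries overlapped both control and 4Gy_48h. Ankrd1 rose 2.26-fold at 12Gy_24h (1.84 to 2.77, adjusted p = 3.52e-06) and fell by 0.87 on the log2 scale between 24 h and 48 h (SE 0.14, adjusted p = 0.000223). With known genes alone these were 0.94 (adjusted p = 0.000172) and -0.82 (0.000287). Leaving out any 1 library kept both calls, with adjusted p up to 2.53e-05 for the rise and 0.0024 for the fall. At 12Gy_48h the log2 change from control was 0.31 ± 0.14 (SE, adjusted p = 0.106), and it was 0.43 without 12Gy_48h replicate 1 (0.0474) and 0.15 without 12Gy_48h replicate 3 (0.444). The rise of 1.38-fold at 4Gy_48h (1.12 to 1.69, adjusted p = 0.0319) did not hold with known genes alone (0.278), nor without 4Gy_48h replicate 1 or 2 or control replicate 3 (0.0659, 0.105 and 0.085). Of 7 cardiac and skeletal muscle markers 1 had enough reads to be tested, Tnnt2, and the summed level of the 7 was 5.56 to 7.15 CPM in control, 5.82 to 9.40 at 12Gy_24h, 8.05 to 13.5 at 12Gy_48h and 7.20 to 11.2 at 4Gy_48h. Tnnt2 rose by 0.73 on the log2 scale at 12Gy_48h (adjusted p = 0.0471, and 0.182 with known genes alone).

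**Figure D3:**
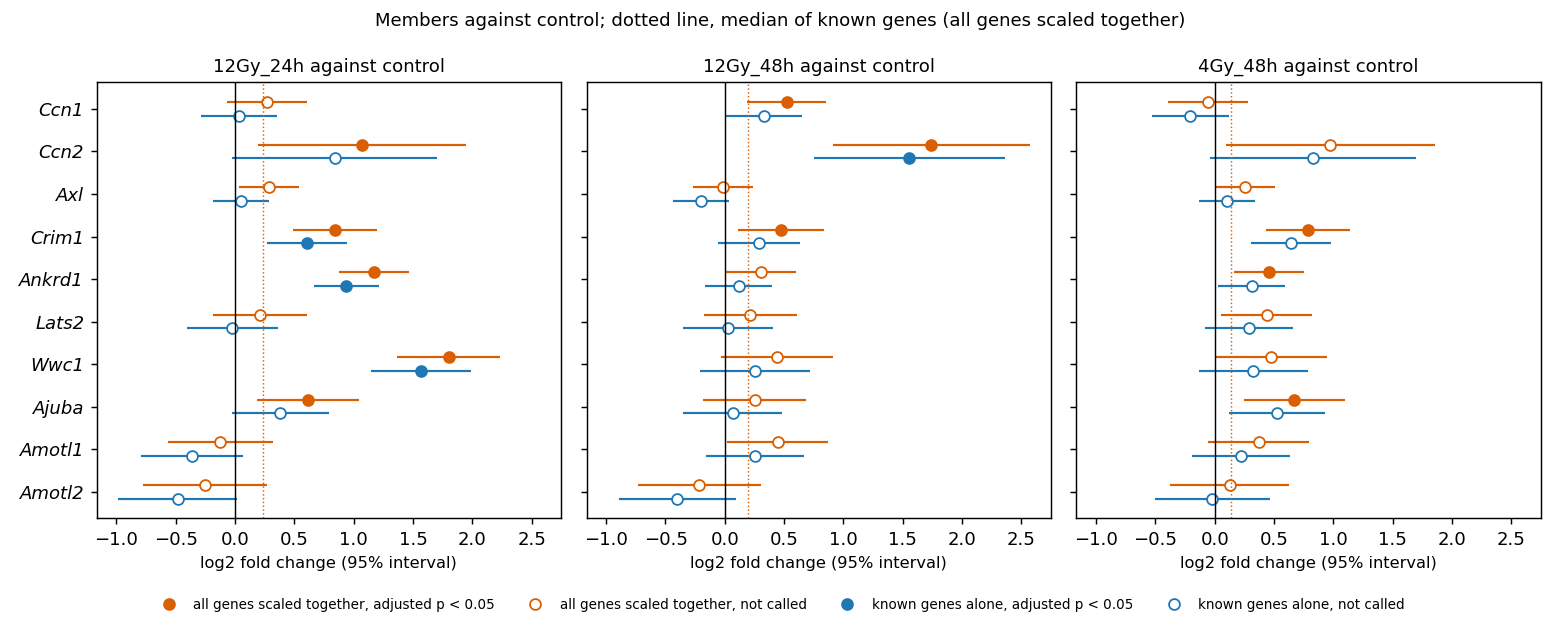
Log2 fold change of each member against control (x axis, with 95% intervals) at 12Gy_24h, 12Gy_48h and 4Gy_48h, in orange for all genes scaled together and in blue for known genes alone. Filled points have an adjusted p under 0.05, and the dotted line is the median known gene. Wwc1 at 1.80, Ankrd1 at 1.18 and Crim1 at 0.84 are filled in both colours at 12Gy_24h.

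The feedback members act upstream of YAP, and Wwc1 had the largest estimated change of all 10 against control, with an interval that overlapped that of Ccn2 at 12Gy_48h. Wwc1 (KIBRA) is a scaffold that works with the NF2 tumour suppressor to activate LATS kinases. It held 9.67, 9.22 and 9.91 CPM in control, 16.4, 12.1 and 11.6 at 4Gy_48h, 30.3, 38.0 and 32.4 at 12Gy_24h, with 10.2, 11.2 and 17.8 at 12Gy_48h. The lowest 12Gy_24h library held well over any library of the other groups, and the 4Gy_48h and 12Gy_48h libraries overlapped each other. Wwc1 rose 3.49-fold at 12Gy_24h (2.58 to 4.71, adjusted p = 2.33e-06), on 363 reads in that group and 118 in control. By 48 h it fell by 1.36 on the log2 scale (SE 0.20, adjusted p = 0.00011). With known genes alone the changes were 1.57 (adjusted p = 7.7e-05) and -1.31 (0.000153), and leaving out any 1 library kept both calls, with adjusted p up to 2.18e-05 and 0.00125. At 12Gy_48h and 4Gy_48h all its libraries lay above control, and the log2 changes of 0.44 ± 0.22 and 0.47 ± 0.22 (SE) had adjusted p of 0.139 and 0.156.

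Ajuba is a LIM-domain adaptor that binds LATS kinases and restrains them. Its CPM was 22.8, 14.3 and 20.1 in control, 24.1, 38.5 and 28.9 at 4Gy_48h, 30.5, 27.3 and 30.3 at 12Gy_24h, with 19.6, 20.9 and 28.0 at 12Gy_48h. The 4Gy_48h and 12Gy_24h libraries lay above all controls and overlapped each other. Ajuba rose 1.53-fold at 12Gy_24h (1.14 to 2.06, adjusted p = 0.0186) and 1.59-fold at 4Gy_48h (1.19 to 2.14, adjusted p = 0.0288). Both calls were lost with known genes alone (adjusted p = 0.19 and 0.202), and the 4Gy_48h call also without 4Gy_48h replicate 2 (0.161) or control replicate 2 (0.0943). At 12Gy_48h its log2 change was 0.25 ± 0.21 (SE, adjusted p = 0.368).

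The motins Amotl1 and Amotl2 bind YAP at junctions and on actin and hold it in the cytoplasm. Amotl1 held 19.6, 27.7 and 23.8 CPM in control, 34.0, 29.9 and 27.8 at 4Gy_48h, 14.3, 21.5 and 29.5 at 12Gy_24h, with 32.7, 33.6 and 30.1 at 12Gy_48h. The 12Gy_48h libraries were close together and above every control and 12Gy_24h library, and the 12Gy_24h libraries were the most spread. Amotl1 was higher at 48 h than at 24 h after 12 Gy by 1.48-fold (1.10 to 2.00, adjusted p = 0.043). That call was lost under DESeq2 (adjusted p = 0.105), RLE scaling (0.0795), no filter (0.0536), a fit to the 2 groups alone (0.0564) and the replicate block (0.0506). Leaving out 12Gy_24h replicate 1 or 2 (0.211 and 0.166) or any 12Gy_48h library (0.103, 0.15 and 0.0583) also ended it, and 12Gy_24h replicate 1 took the log2 change from 0.57 to 0.33. Its log2 changes against control were -0.12 at 12Gy_24h, 0.44 at 12Gy_48h and 0.37 at 4Gy_48h, with adjusted p of 0.659, 0.0985 and 0.222, and no filter brought the second to 0.0322.

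No comparison called Amotl2 or Lats2. Amotl2 held 16.5, 8.96 and 15.8 CPM in control, 11.7, 18.5 and 15.1 at 4Gy_48h, 11.4, 14.3 and 9.04 at 12Gy_24h, with 11, 12.7 and 12.0 at 12Gy_48h, and all 4 groups overlapped. Its 95% intervals against control ran from 0.586-fold to 1.21-fold at 12Gy_24h, 0.603-fold to 1.23-fold at 12Gy_48h and 0.773-fold to 1.55-fold at 4Gy_48h. Lats2, the kinase that inhibits YAP directly, held 11, 9.47 and 13.1 CPM in control, 12.5, 17.5 and 15.4 at 4Gy_48h, 12.7, 13.0 and 13.1 at 12Gy_24h, with 13.3, 13.2 and 12.3 at 12Gy_48h. All 4 groups overlapped, with the second control library lowest and the second 4Gy_48h library highest. Its intervals were 0.881-fold to 1.52-fold, 0.885-fold to 1.52-fold and 1.04-fold to 1.77-fold in the same order, the last with an adjusted p of 0.108.

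**Figure D4:**
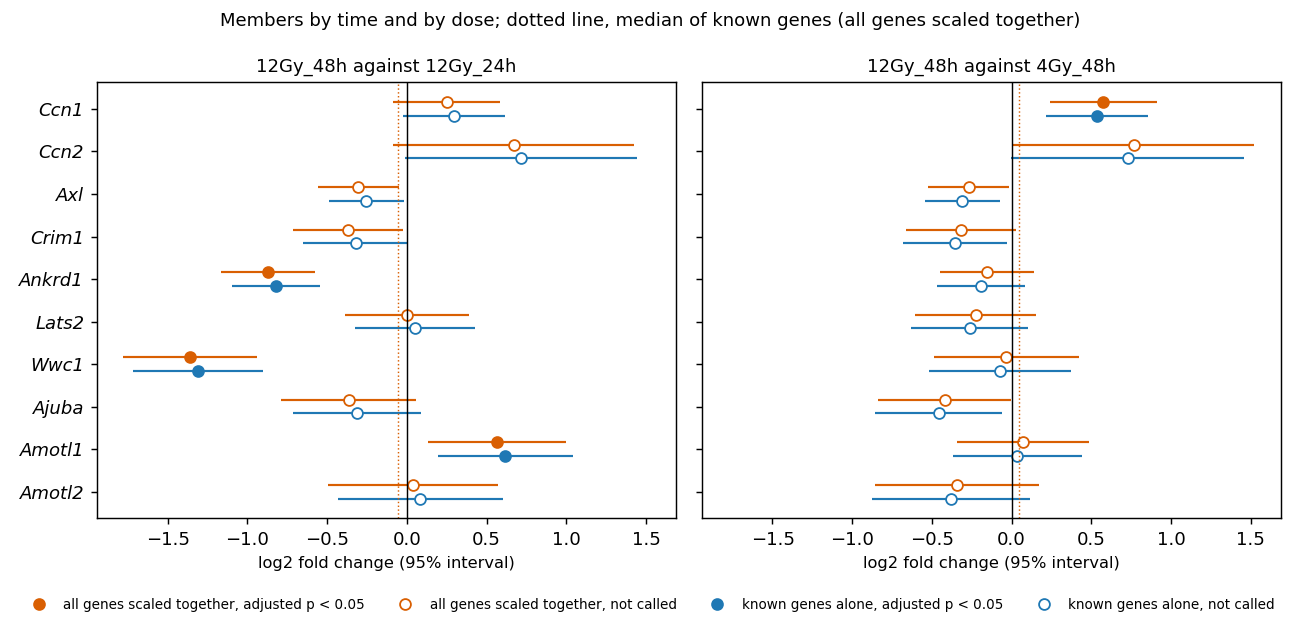
Log2 fold change of each member (x axis, with 95% intervals) for 12Gy_48h against 12Gy_24h and for 12Gy_48h against 4Gy_48h, in orange for all genes scaled together and in blue for known genes alone. Filled points have an adjusted p under 0.05. Ankrd1 at -0.87 and Wwc1 at -1.36 lie below 0 on the left, and Ccn1 at 0.58 is the filled member on the right.

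The order of the groups was not the same in all members, which can be read without any scaling from ratios of reads within a library. The pairs were picked after the values were seen, so they are given as a description. Ankrd1 had 24.3 ± 2.52 reads per 100 Ccn1 reads in control, 35.5 ± 7.60 at 4Gy_48h, 46.1 ± 11.3 at 12Gy_24h, with 20.7 ± 3.89 at 12Gy_48h (SD, n = 3 each). The 12Gy_24h libraries lay above the control and 12Gy_48h libraries, which overlapped, and within reach of the 4Gy_48h libraries. Wwc1 had 3.89 ± 0.803 reads per 100 Ccn1 reads in control, 5.51 ± 0.167 at 4Gy_48h, 11.1 ± 1.58 at 12Gy_24h, with 3.60 ± 1.11 at 12Gy_48h. Set against its own paralog Wwc2, Wwc1 had 67.6 ± 5.63 reads per 100 in control, 80.5 ± 24.0 at 4Gy_48h, 205 ± 46.1 at 12Gy_24h, with 84.7 ± 33.9 at 12Gy_48h. The 12Gy_24h libraries lay above all 9 others in both Wwc1 ratios. Ccn2 had 1.64 ± 0.530 reads per 100 Ccn1 reads in control, 3.48 ± 0.477 at 4Gy_48h, 2.85 ± 0.880 at 12Gy_24h, with 3.93 ± 1.86 at 12Gy_48h. All libraries at 4Gy_48h and 12Gy_48h lay above all controls in that ratio, and those at 12Gy_24h overlapped them.

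**Figure D5:**
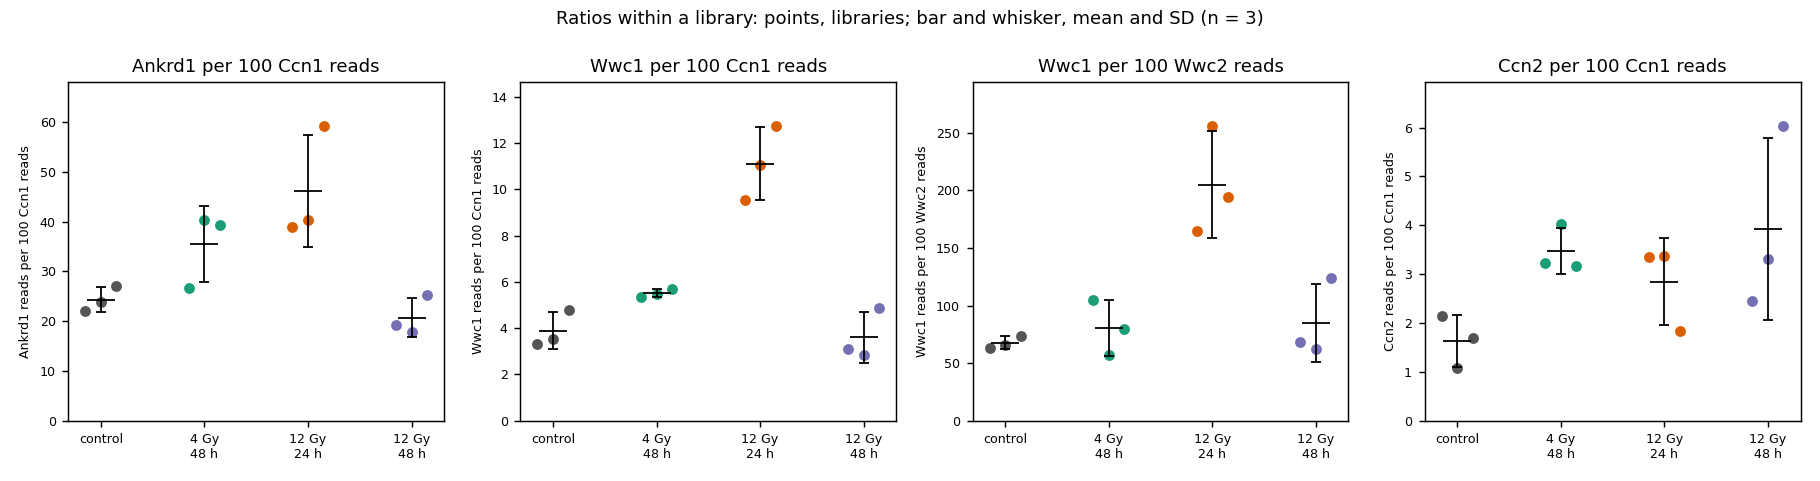
Reads of one gene per 100 reads of another in the same library (y axis, from 0) for the 4 groups of 3 libraries (x axis). Points are libraries, and the bar and whiskers are the mean and SD. Wwc1 per 100 Wwc2 reads is 165 to 256 at 12Gy_24h and at most 124 elsewhere.

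Patterns most like the 2 members with the widest range of group means, Wwc1 and Ccn2, were looked up over the 12 libraries among 8357 known genes. Likeness was the root mean square difference in centred log2 CPM, which includes counting noise. For Wwc1 the closest were Nefm (0.21), Podnl1 (0.21) and Kitl (0.22), where the median gene was at 0.67. Nefm, a neurofilament subunit, held 87.9 ± 4.63 CPM in control, 116 ± 8.66 at 4Gy_48h, 266 ± 21.9 at 12Gy_24h, with 136 ± 16.3 at 12Gy_48h. Kitl, the ligand of the receptor KIT, held 11.1 ± 1.42, 12.1 ± 1.84, 28.6 ± 2.65 and 11.5 ± 2.96 CPM in the same order. Podnl1 held 7.83 ± 2.04, 11.9 ± 1.18, 25.3 ± 4.71 and 10.4 ± 2.12. For Ccn2 the closest were Id2 (0.33), Dusp1 (0.33) and Id1 (0.33), against a median of 0.74. Id1 and Id2 are inhibitors of basic helix-loop-helix factors and Dusp1 is a MAP kinase phosphatase. Id2 held 11.6 ± 4.06, 27.5 ± 7.38, 22.1 ± 3.14 and 39.0 ± 17.6 CPM, and Dusp1 held 21.0 ± 5.08, 32.6 ± 5.63, 35.4 ± 7.26 and 71.8 ± 14.2 in that order of groups.

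The other genes of the pathway are read against the share of all genes. At 12Gy_24h 18.5% of all genes and 26.5% of known genes were called higher, and 29.4% and 3.99% lower. At 12Gy_48h these shares were 12.9% and 18.2% higher, 20.2% and 3.74% lower, and at 4Gy_48h 4.53% and 6.21% higher, 13% and 0.877% lower. Fitted alone, 9.15%, 6.76% and 0.754% of known genes were called higher at 12Gy_24h, 12Gy_48h and 4Gy_48h, and 7.91%, 8.04% and 0.57% lower.

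Of the coactivators and their partners, 7 of 10 listed genes were tested. At 12Gy_24h 3 rose and 0 fell (1 and 0 with known genes alone): Tead4, a DNA-binding partner, by 0.93 on the log2 scale (adjusted p = 0.00355, and 0.0457 with known genes alone), Yap1 by 0.49 (0.0079 and 0.227) and Tead2 by 0.50 (0.0172 and 0.254). At 12Gy_48h 2 rose, Yap1 by 0.69 (0.0013, and 0.0206 with known genes alone) and Wwtr1, which codes for TAZ, by 0.42 (0.0382 and 0.299). At 4Gy_48h Yap1 rose by 0.59 (0.00783 and 0.131) and Vgll4, a TEAD-binding competitor of YAP, fell by 0.92 (0.0432 and 0.0893). Yap1 averaged 25.0 CPM in control, 37.5 at 4Gy_48h, 35.1 at 12Gy_24h, with 40.2 at 12Gy_48h. Between irradiated groups edgeR called 0 of the 7 in either comparison, with 1 lower at an unadjusted p under 0.05 in each and 0 called by DESeq2.

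All 12 listed genes of the Hippo kinase cascade were tested. At 12Gy_24h 5 rose (2 with known genes alone, Stk38l and Taok3), led by Map4k4 at 0.63, Stk38l at 0.96, Taok3 at 1.31 and Stk4, which codes for MST1, at 0.69 on the log2 scale (adjusted p = 0.00112, 0.00207, 0.00288 and 0.00426). Map4k4 (0.0513) and Stk4 (0.0838) lost their calls with known genes alone. At 12Gy_48h 3 rose (2 with known genes alone): Map4k4 at 0.65, Stk38l at 1.03 and the scaffold gene Sav1 at 0.87 (0.00186, 0.00235 and 0.0256), of which Sav1 was lost with known genes alone (0.104). At 4Gy_48h Map4k4 rose by 0.44 (0.0337) and Stk3, which codes for MST2, fell by 0.81 (0.0325), both lost with known genes alone. From 24 h to 48 h after 12 Gy, Stk4 fell by 0.71 (0.00735) and Stk3 by 0.72 (0.0258), while Sav1 rose by 0.93 (0.0221), and all 3 calls held with known genes alone. The 12Gy_24h peak of Stk4 lay at 18.8 CPM, beside 11.7 in control and 11.5 at 12Gy_48h.

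Of 22 further upstream regulators 15 were tested, and at 12Gy_24h 4 rose and 3 fell. With known genes alone 0 rose there and the same 3 fell, Ptpn14, Pard3 and Fat1, of which DESeq2 called 1. Of 9816 known genes fitted alone, 9.15% were called higher there and 7.91% lower. The 4 of 15 that rose lie close to the share of known genes called higher. The 4 with the lowest adjusted p were Rassf1 at 0.49, Ctnna1 at 0.44, Ptpn14 at -0.67 and Llgl1 at 0.41 (adjusted p = 0.00127, 0.00131, 0.00277 and 0.00638). Ptpn14, a phosphatase that binds YAP, had 27.7 CPM in control, 17.3 at 12Gy_24h, with 32.7 at 12Gy_48h, and rose by 0.92 from 24 h to 48 h (0.000552). At 12Gy_48h 4 rose (0 with known genes alone), Ctnna1 at 0.46, Nf2 at 0.80, Llgl1 at 0.40 and Dlg5 at 0.58 (0.00193, 0.0123, 0.0124 and 0.0418). At 4Gy_48h Llgl1 rose by 0.43 and Ctnna1 by 0.35 (0.0145 and 0.0222), both lost with known genes alone. From 24 h to 48 h Nf2, the partner of Wwc1, rose by 0.89 (0.0082) and Pard3 by 0.56 (0.0157), while Rassf1 fell by 0.44 (0.00613).

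Of 24 other genes often listed as YAP or TAZ targets, 13 were tested, and Ptpn14 is among them too. At 12Gy_24h 4 rose and 1 fell (1 and 1 with known genes alone), and DESeq2 called 3 and 1. Among those that rose, Asap1 did so by 0.68 on the log2 scale (edgeR adjusted p = 0.00273) and Myof by 0.53 (0.00367). At 12Gy_48h 3 rose and 1 fell (1 and 1), with Ccdc80 up by 1.53 (0.0178) and Tgfbr2 by 0.53 (0.0445), while the tissue factor gene F3 fell by 0.63 (0.0214). With known genes alone these calls of Asap1, Myof, Ccdc80 and Tgfbr2 were lost (adjusted p = 0.0619, 0.113, 0.0555 and 0.229). At 4Gy_48h 1 rose, Myof by 0.41 (0.0472), and 0 did with known genes alone. Between 24 h and 48 h Ptpn14 rose, as given above, and Myof fell by 0.40 (0.0335), a call lost with known genes alone (0.0509). The median log2 change of the 13 was 0.21, 0.25 and 0.23 at 12Gy_24h, 12Gy_48h and 4Gy_48h, beside 0.45, 0.37 and 0.45 for the 10 members. The median known gene stood at 0.23, 0.20 and 0.14 in the same order. With known genes alone the median of the 13 was -0.03, 0.06 and 0.08, beside 0.22, 0.19 and 0.30 for the members.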

How the data were processed

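RNA from 12 MODE-K libraries was sequenced, and 1 gene table was deposited. It holds counts, deposited as whole numbers of reads per gene and library without normalization, and CPM, which the authors computed as count over column total (recomputed values differed by at most 4.78e-06). Further columns, other deposited values from the authors' own comparisons (adjusted p, log2 fold change), were not used here. Adapters were trimmed with cutadapt 1.9 and reads checked with FastQC, per the submitters' processing notes. What aligner, build, annotation and strand setting were used is not given in the sources used here, which leave the platform unsettled too. Of 33636 lines, 11 were overflow of an annotation cell with 0 reads and were dropped. Symbols came from the Ensembl identifier (22022 of 22036 matched).

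Tests used edgeR 4.0.16 (R 4.3.3) on the counts after filterByExpr, with TMM scaling over all genes, 1 mean per group over all 12 libraries, quasi-likelihood tests, two-sided, Benjamini-Hochberg adjustment over the 15086 genes tested, threshold 0.05. There were 5 comparisons. The biological coefficient of variation was 0.144, and no pair of libraries agreed within counting noise (lowest chi-square per degree of freedom 1.72). Alternatives were RLE scaling, no filter, a group mean of 5 CPM or more, known genes alone, DESeq2 1.42.0, the 2 groups alone, the replicate block and each library left out. The method was tested on simulated data with equal group means, apart from a small set of genes moved up or down at random. Those data held no shift of unannotated loci, so they do not test the scaling. The members, lists and alternatives were chosen with earlier results of these data known. Genes named beside the members are, per list and comparison, up to 4 past the threshold by adjusted p, and the 3 closest in pattern to each of the 2 members of widest range; Pard3, Fat1 and the pairs in the read ratios were named after their values were seen. A gene that the rule names but that is counted only in its list's totals is not reported here. Promoter windows are from RefSeq.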

Additional observations from a re-analysis of the deposited data

Results flagged for a closer look

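Of the 10 members 4 differed between irradiated groups by a direct test, 3 between times and 1 between doses. Between times 20.6% of all genes tested were called higher and 11.4% lower, and of known genes 9.97% and 15.6%. Between doses these shares were 2.19% and 2.49% of all genes, and 2.79% and 1.55% of known genes. The 1 higher and 2 lower of 10 members between times lay close to the shares of known genes. No unirradiated cells were collected at 24 h or 48 h, so in the comparison of times the time after irradiation and the time in culture cannot be told apart. Between 24 h and 48 h after 12 Gy the log2 change was -0.87 for Ankrd1, -1.36 for Wwc1 and 0.57 for Amotl1. From 4 Gy to 12 Gy at 48 h it was 0.58 for Ccn1. The Amotl1 and Ccn1 calls were lost with single libraries left out. The values by library stand with each gene above, and no group was large enough for a test of outlying libraries.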

How the results depend on the processing

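The members' log2 changes were recomputed under 13 alternatives per comparison. Ankrd1 and Wwc1 kept both of their 12Gy_24h calls, the rise from control and the fall to 48 h, in all of them. Members called higher at 12Gy_24h numbered 5 and were 3 with known genes alone, 6 under DESeq2, RLE and the 5 CPM filter, 7 with no filter and 4 to 7 with a library left out. At 12Gy_48h they numbered 3, with 1 for known genes alone, 1 to 3 with a library left out and at most 4 under any alternative. At 4Gy_48h they numbered 3, with 0 for known genes alone, 1 to 3 with a library left out and at most 4 under any alternative. Between 24 h and 48 h the 1 higher member became 0 under DESeq2, no filter, 2 groups alone, RLE and the replicate block, and 0 to 1 with a library left out. The 2 lower members became 4 under 2 groups alone and RLE, and 3 under DESeq2. Axl was also called lower there with the 5 CPM filter, with no filter and without 12Gy_48h replicate 3. For 12 Gy against 4 Gy the count of higher members was 0 to 1 with a library left out. The replicate block left the count at 4 for 12Gy_24h, 2 for 12Gy_48h and 3 for 4Gy_48h against control. The median correlation of deviations was -0.01 between same-numbered libraries (1 of 18 pairs over 0.1) and 0.004 between the others (3 of 36). With 3 libraries per group these values cannot settle whether the numbers pair the libraries. The cause of these changes was not tested. Scaling moved the median known gene by up to 0.24 log2.

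Reversals were limited to changes that were not called when all genes were scaled together. With no filter Amotl1 at 12Gy_24h was 0.031, Axl at 12Gy_48h 0.059, Ccn1 at 4Gy_48h 0.021, and between 24 h and 48 h Amotl2 was -0.046 and Lats2 -0.080. For that pair of times DESeq2 gave -0.038 for Amotl2 and -0.074 for Lats2, and RLE gave -0.039 and -0.073. Lats2 was -0.0074 with at least 5 CPM and -0.025 with 2 groups alone. Known genes alone gave -0.019 for Amotl2 at 4Gy_48h and -0.023 for Lats2 at 12Gy_24h. With a library left out, the ranges were -0.27 to 0.13 for Amotl1 and -0.40 to 0.023 for Amotl2 at 12Gy_24h, -0.073 to 0.092 for Axl at 12Gy_48h, and -0.24 to 0.069 for Ccn1 and -0.058 to 0.30 for Amotl2 at 4Gy_48h. Between the 2 times after 12 Gy they were -0.21 to 0.13 for Amotl2 and -0.088 to 0.034 for Lats2, and for 12 Gy against 4 Gy -0.32 to 0.14 for Wwc1. Depth limits Ccn2 most, at 11 to 84 reads per library.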
